A study of Homo sapiens with 21 samples.

Results

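Among 26861 regions bound by Flag-tagged estrogen receptor beta (ER-beta) in estradiol-treated MDA-MB-231-ER-beta cells, 880 (3.28%) had their summit, the base of highest enrichment, in protein-coding sequence. A region was counted when its summit lay in the coding part of an exon of a protein-coding GENCODE transcript on hg38. Summits between 1000 bp upstream and 100 bp downstream of a protein-coding transcription start site (TSS), or in a 5' UTR, were left out. The 880 regions lay in 837 genes, which is 4.26% of the 19663 protein-coding genes. Of these genes 42 held at least 2 such regions, and DAGLA alone held 3. The exon was one of the MANE Select transcript for 838 regions, and 7 summits lay in the coding sequence of more than 1 gene.

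ER-beta is a nuclear receptor that binds DNA as a dimer after it takes up estradiol. Its best known binding sequence is the estrogen response element (ERE), a palindrome of GGTCA, any 3 bases and TGACC. Most known receptor sites lie in introns, between genes or at promoters, where sequence is free of the reading frame. In a coding exon the same bases also spell codons, so an ERE there must fit the protein.

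The data came from chromatin immunoprecipitation followed by sequencing (ChIP-seq) with a Flag antibody. MDA-MB-231-ER-beta is a triple-negative breast cancer line with a doxycycline-inducible ER-beta, so every group carried the added receptor and 24 h of doxycycline at 100 ng/ml. The 3 h treatments were 1 nM estradiol, LY500307 (an ER-beta-selective agonist) and ethanol, the vehicle of both. The LY500307 dose is 10 nM in the sample characteristics and 1 nM in the titles, and the difference could not be settled. The labels describe 4 ChIP and 3 input libraries for each treatment. Each treatment has 1 list of regions, named in the labels of its 4 ChIP libraries, so the lists were read as pooled and no value has a replicate error. The protocol says that cells were treated in triplicate, and how many of the 4 libraries went into a list is not given in the sources used here. Fold enrichment and −log10 q were computed by the authors for each region and scaled within each list, so they stand side by side across lists without a test. Intervals are 95% Wilson intervals, which cover counting error only, and p-values speak of positions within a list, not of cultures.

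The 2 genes HDAC7 and ESR2 had regions over most of their coding exons in the ethanol list, and HDAC7 also in the LY500307 list. They held 3 of the 880 estradiol coding-exon regions, 9 of 300 LY500307 and 18 of 127 ethanol ones. They are described at the end, and the shares that lead each result are also given without them.

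EREs were sought at the summit and in the 100 bp on each side of it with at most 1 mismatch in the 10 fixed letters. In 8 regions an exact copy lay wholly inside the coding exon, and 7 of these are shown because they join the receptor's palindrome to a reading frame. Each is written 5′ to 3′ on the strand of its gene, with fixed letters that match the palindrome in capitals and the spacer and 8 flanking bases on each side in lower case.
SLC12A3 (chr16:56869749-56869777, plus strand): ctgctgtcGGTCAcggTGACCtccatcac
KAT2A (chr17:42117703-42117731, minus strand): gtcaatgaGGTCAtgcTGACCatcactga
FSTL4 (chr5:133249522-133249550, minus strand): gaggacagGGTCAgtgTGACCacagtgac
ITPRIPL2 (chr16:19115278-19115306, plus strand): cgctgtcgGGTCAcctTGACCccaggtgg
OSCAR (chr19:54097077-54097105, minus strand): acccctggGGTCAacgTGACCttgagatg
PTPRH (chr19:55186238-55186266, minus strand): cacaccctGGTCAtgcTGACCaactgcat
PROKR1 (chr2:68655121-68655149, plus strand): ggccccgtGGTCAccaTGACCctgtgcta
The genes encode the thiazide-sensitive sodium chloride cotransporter (SLC12A3), a histone acetyltransferase (KAT2A), a follistatin-like protein (FSTL4), a protein of unsettled role (ITPRIPL2), an osteoclast-associated receptor (OSCAR), a receptor tyrosine phosphatase (PTPRH) and a prokineticin receptor (PROKR1). None of the 7 was among the strongest regions. The highest was SLC12A3 exon 4, with a fold of 19.4 in estradiol and 5.8 in LY500307 and no ethanol region. The other 6 overlapped no region of either list. Their estradiol folds were 18.1 at KAT2A, 14.2 at FSTL4, 10.0 at ITPRIPL2, 9.5 at OSCAR, 7.5 at PTPRH and 5.1 at PROKR1. Most estradiol regions had no such overlap, with 68.0% of the coding-exon regions and 64.9% of the whole list in neither other list. The lack of a partner therefore does not set these 6 apart.

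In 2 more regions an exact copy crossed the edge of the coding exon. ELK1, which encodes a transcription factor of the ETS family, and SYF2, which encodes a splicing factor, each had the copy at an exon boundary, so that its letters were shared with the intron.
ELK1 (chrX:47638163-47638191, minus strand): ctctaccaGGTCAtccTGACCccgcccga
SYF2 (chr1:25228098-25228126, minus strand): gattttcaGGTCAgatTGACCtttattga
Among the 12 strongest coding-exon regions, 4 had an ERE with 1 mismatch, which is the lower-case letter inside the GGTCA or TGACC arm. They are shown because they lay under the strongest regions with an ERE.
CSF2RB (chr22:36926026-36926054, plus strand): catgccctGGTCAgccTGcCCccatcccc
LGALS2 (chr22:37570393-37570421, minus strand): tccccacaGtTCAcagTGACCtttgagag
ALDH3B1 (chr11:68018566-68018594, plus strand): cagggcgaGGTCAcccTGgCCctcaggaa
RBM20 (chr10:110781375-110781403, plus strand): tcaacctcGGgCAgtgTGACCtatgaagg
These 4 were chosen by strength, so their folds of 105.5 to 187.0 are not set against those of the exact copies. Over all 81 coding-exon regions with an ERE of at most 1 mismatch, the median fold was 13.8.

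The summits were not spread over coding sequence in proportion to its length. The first exon held 453 of the 880 summits (51.5%, 48.2 to 54.8), whereas first exons made up 7.55% of the 31.6 Mb of coding bases that the definition allowed. Internal coding exons held 304 summits (34.5%, 31.5 to 37.7) and 67.2% of the bases. Last coding exons held 169 (19.2%, 16.7 to 21.9) and 24.5% of the bases. A first exon can also be the last coding exon, as in the 82 regions of genes with 1 coding exon. By length, exons of 300 bp to under 1000 bp held 35.5% of summits and 14.6% of bases. Exons under 150 bp held 17.3% of summits and 31.5% of bases. Exons of 1000 bp or more held 21.7% of summits and 26.5% of bases. The length shares changed with distance from a TSS. Within 2500 bp of one, exons of 300 bp to under 1000 bp held 47.8% of summits and exons under 150 bp held 8.08%. Beyond 2500 bp these shares were 9.79% and 36.4%. Coding bases were not divided by length and distance together, so the shares by distance have no background.

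**Figure D1:**
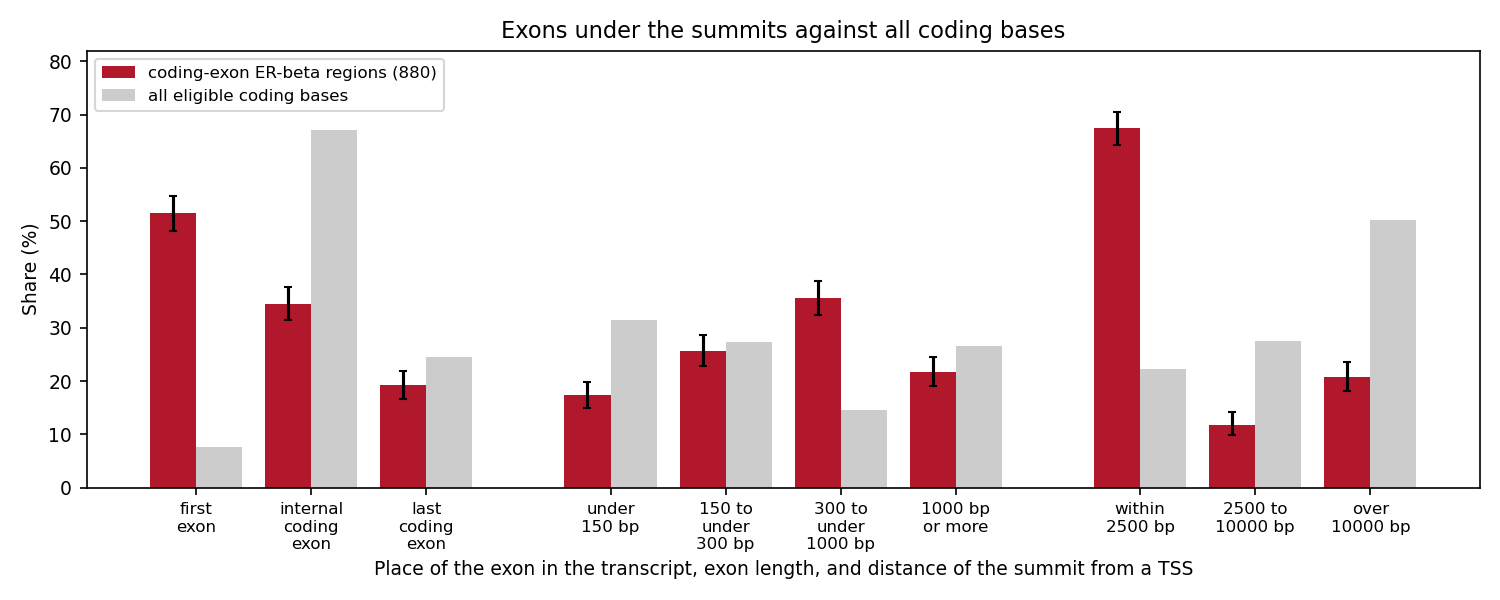
Share (%) of the 880 coding-exon ER-beta regions (red, with 95% Wilson intervals) and of all eligible coding bases (grey) by place of the exon in its transcript, exon length and distance of the summit from the nearest TSS. First exons held 51.5% of summits against 7.55% of coding bases, and positions over 10 kb from a TSS held 20.7% against 50.3%; first, internal and last exons overlap in genes with few exons.

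The exons under a summit were 36 to 15975 bp long, with a median of 352 bp, and their rank in the transcript ran from 1 to 96. The shortest was exon 28 of COL17A1, a collagen chain of the hemidesmosome, with a fold of 37.7 in estradiol and 6.7 in LY500307. The longest was exon 2 of EPPK1, which encodes the cytoskeletal linker epiplakin, with an estradiol fold of 6.5. FEM1A (exon of 9540 bp, fold 8.5) and BTD, the biotinidase gene (exon of 9399 bp, fold 18.8), came next. No other list had a region at EPPK1, FEM1A or BTD. Regions were often larger than the exon under them. In 277 the region covered the whole exon, in 261 it lay wholly inside it, and a median of 57.3% of a region's bases were coding in the assigned exon.

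Distance from the nearest protein-coding TSS split the 880 regions into 2 unlike sets. Within 2500 bp lay 594 (67.5%, 64.3 to 70.5), against 22.2% of coding bases, and 452 of these 594 were in a first exon. Beyond 2500 bp lay 286, of which 218 (76.2%) were in internal exons. Exon rank is tied to TSS distance by gene structure, and coding bases were not divided by both, so these exon counts have no background. The far set had the stronger regions, with a median fold of 12.5 against 6.50 in the near set. The windows of the far set had a median GC content of 57.7%, against 71.1% in the near set. Introns were divided in the same direction, with median folds of 11.6 far and 7.41 near. Their median GC content was 50.7% far and 63.2% near. Promoter regions, with a median fold of 6.90 and a median GC content of 68.7%, were close to the near coding set. Of all 880 summits, 234 lay within 250 bp of a TSS and 157 from there to 500 bp.

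The ERE marked the same divide. An ERE was found at 59 of the 286 far summits (20.6%, 16.3 to 25.7) and at 22 of the 594 near ones (3.70%, 2.46 to 5.54). The odds ratio was 6.76 (4.05 to 11.3; two-sided Fisher's exact test, Benjamini-Hochberg adjusted p = 3.08e-14 over 23 tests, which is the adjustment used throughout). It was 3.58 (2.08 to 6.16) within deciles of −log10 q, 11.5 (5.84 to 22.6) with the split at 1000 bp and 3.65 (2.29 to 5.82) with the split at 5 kb, settings added after seeing the data. Set against intronic summits that were also over 2500 bp from a TSS, of which 17.1% had an ERE, the far coding summits had an odds ratio of 1.26 (0.939 to 1.69; Fisher's exact test, adjusted p = 0.178). Coding exons and introns far from a TSS were therefore not told apart in ERE frequency, and the interval allows a ratio of up to 1.69. Near intronic summits had an ERE in 7.93%, so introns differed by distance in the same direction. Promoter summits had one in 3.99%. By distance from the TSS, the ERE share of coding-exon summits was 0.855% up to 250 bp and 0.637% from there to 500 bp. It was 6.19% to 1000 bp and 13.3% to 2500 bp. It was 26.0% from 2500 to 10000 bp, 16.7% to 50000 bp and 21.1% farther out, and the intervals of the last 3 overlap.

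**Figure D2:**
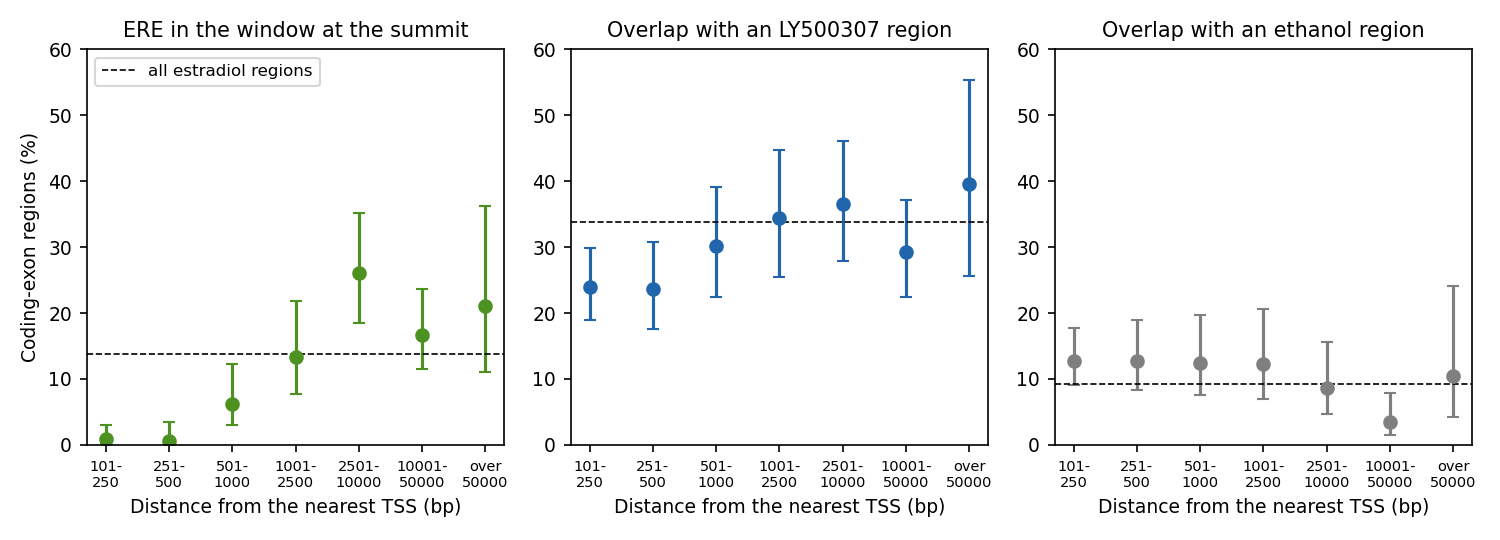
Share (%) of coding-exon regions with an ERE of at most 1 mismatch (left), with an LY500307 region (middle) and with an ethanol region (right), in 7 bins of distance from the nearest protein-coding TSS. Bars are 95% Wilson intervals and dashed lines give the share over all estradiol regions; the ERE share is under 1% up to 500 bp and 16.7 to 26.0% beyond 2500 bp.

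Over all 880 regions, 81 (9.20%, 7.47 to 11.3) had an ERE, against 13.8% of all estradiol regions. The share among intronic regions was 14.5%, with an odds ratio of coding over intronic summits of 0.596 (0.471 to 0.753; Fisher's exact test, adjusted p = 1.47e-05). Where promoters were drawn 2500 bp wide on both sides, only far regions were left, and the ratio was the one given above for far summits, 1.26 (0.939 to 1.69; Fisher's exact test, adjusted p = 0.178). This is the same comparison and not a second one. The direction of the ratio over all regions thus rests on the near set. Windows of equal width 2000 bp downstream of the same summits had an ERE in 0.682%. Downstream here means toward higher coordinates whatever the strand, which is upstream for a gene on the minus strand. The ERE was at the summit alone in 80 regions and downstream alone in 5 (exact two-sided sign test, adjusted p = 9.93e-18 over 11 motifs). Of 166765 windows on coding exons without an estradiol region, 0.795% had one. The downstream and other exon windows were not matched on base composition. Without HDAC7 and ESR2 the share was 9.12%.

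The EREs lay close to the summits and mostly inside the coding exon. Of the 81, 69 lay inside it, 10 crossed its edge and 2 lay outside it. The summits were coding by definition, and 72.0% of the window bases of these 81 regions were in the assigned coding exon. Most EREs were therefore likely to lie there, and their place was not tested against this share. The centre of the ERE was a median of 16 bp from the summit, and 74 of 81 were within 50 bp. ADAMTS16 exon 4, in a secreted metalloprotease gene, had its ERE centre 6 bp from a summit with a fold of 42.0. HDAC1 exon 14, in a histone deacetylase gene chosen here after its values were seen, had it 15 bp away under a fold of 32.5.

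The whole genome gave 55 exact EREs in coding exons, and 11 of them (20.0%, 11.6 to 32.4) lay in an estradiol region. In introns 188 of 903 did (20.8%), with an odds ratio of 0.951 (0.482 to 1.88; Fisher's exact test, adjusted p = 1.00). An exact ERE in a coding exon was thus not distinguished from one in an intron, although the interval is wide. At promoters 18 of 36 exact EREs lay in a region, with an interval of 34.5 to 65.5%. With 1 mismatch allowed, 93 of 1528 coding-exon EREs (6.09%) and 6.92% of intronic ones did.

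The reading frame limited how an ERE could sit in a coding exon. Of 54 exact EREs wholly inside an exon of a whole-codon transcript, 18 began at codon position 1, none at position 2 and 36 at position 3. The 10 of these in an estradiol region were split 3, 0 and 7. A start at position 2 puts the letters TGA of the second arm in frame, where they spell a stop codon. Annotated coding sequence runs without a stop codon to its end, so the lack of exact copies at position 2 follows from the annotation. With 1 mismatch allowed, 29 of 1428 began at position 2, and in none of the 29 was that codon TGA, which the annotation likewise requires. The 82 of these that lay in an estradiol region were split 15, 3 and 64. CSF2RB shows how a site at position 2 differed from the palindrome: its single mismatch falls in the TGA letters, as its printed sequence shows.

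Of the 880 coding-exon regions, 253 (28.8%, 25.9 to 31.8) overlapped an LY500307 region by at least 1 bp, against 33.8% of all estradiol regions. An ethanol region overlapped 93 (10.6%, 8.71 to 12.8), against 9.26% of all. All 3 lists shared 64 (7.27%, against 8.01% of all estradiol regions), LY500307 alone 189 (21.5%, against 25.8%) and ethanol alone 29 (3.30%, against 1.25%). No partner was found for 598 (68.0%), close to the 64.9% of all estradiol regions. Without HDAC7 and ESR2 the shares were 28.5% for LY500307 and 10.3% for ethanol. Where the lists met, the summits were close, with a median distance of 26 bp to the LY500307 summit and 54 bp to the ethanol summit. Coding-exon summits made up 2.99% of the LY500307 list and 4.37% of the ethanol list, or 3.78% of the ethanol list without the 2 genes. Of the LY500307 coding-exon regions 89.3% overlapped an estradiol region, against 91.9% of the whole LY500307 list. Of the ethanol coding-exon regions 77.2% did, against 87.0% of the whole ethanol list.

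The LY500307 overlap was lower than in introns before strength was taken into account. The odds ratio of coding over intronic regions was 0.748 (0.643 to 0.869; Fisher's exact test, adjusted p = 3.10e-04). Coding-exon regions were weaker, with a median fold of 7.49, against 10.2 in introns and 9.50 in the whole list. Only 33.4% had a −log10 q above the list median, and their share of the list was 5.43% in the lowest decile of −log10 q and 1.68% in the highest. Within deciles of −log10 q the odds ratio turned to 1.43 (1.17 to 1.74; Mantel-Haenszel chi-square test, adjusted p = 7.13e-04). For ethanol the odds ratio over introns was 1.15 (0.921 to 1.44; Fisher's exact test, adjusted p = 0.278). Within deciles it was 1.60 (1.26 to 2.04; Mantel-Haenszel chi-square test, adjusted p = 1.48e-04).

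Distance from a TSS went with this pattern too. In the weaker 5 deciles, 3 of 112 far coding-exon regions (2.68%, 0.915 to 7.58) overlapped an LY500307 region, against 73 of 474 near ones (15.4%, 12.4 to 18.9). Intronic regions of the same strength gave 5.26% when far and 14.9% when near. In the stronger 5 deciles the coding-exon shares were 52.9% far and 70.8% near. Within deciles the odds ratio of far over near coding-exon regions was 0.158 (0.0850 to 0.292; Mantel-Haenszel chi-square test, adjusted p = 7.09e-11). Without the deciles it was 1.37 (1.01 to 1.86; Fisher's exact test, adjusted p = 0.0718), and with the split at 1000 bp 1.50 (1.12 to 2.01; adjusted p = 0.0128). Ethanol regions overlapped 18 of 286 far regions (6.29%) and 75 of 594 near ones (12.6%), with an odds ratio of 0.465 (0.272 to 0.794; Fisher's exact test, adjusted p = 0.00772). This ratio was 0.175 (0.0845 to 0.361) within deciles and 0.307 (0.156 to 0.602) with the split at 5 kb. Far coding-exon and far intronic regions did not pass Fisher's exact test against each other for LY500307 (0.895, 0.697 to 1.15; adjusted p = 0.476) or ethanol (0.815, 0.502 to 1.32; adjusted p = 0.541). GC content moves with distance from a TSS, as given above, and its part in these overlaps was not tested.

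**Figure D3:**
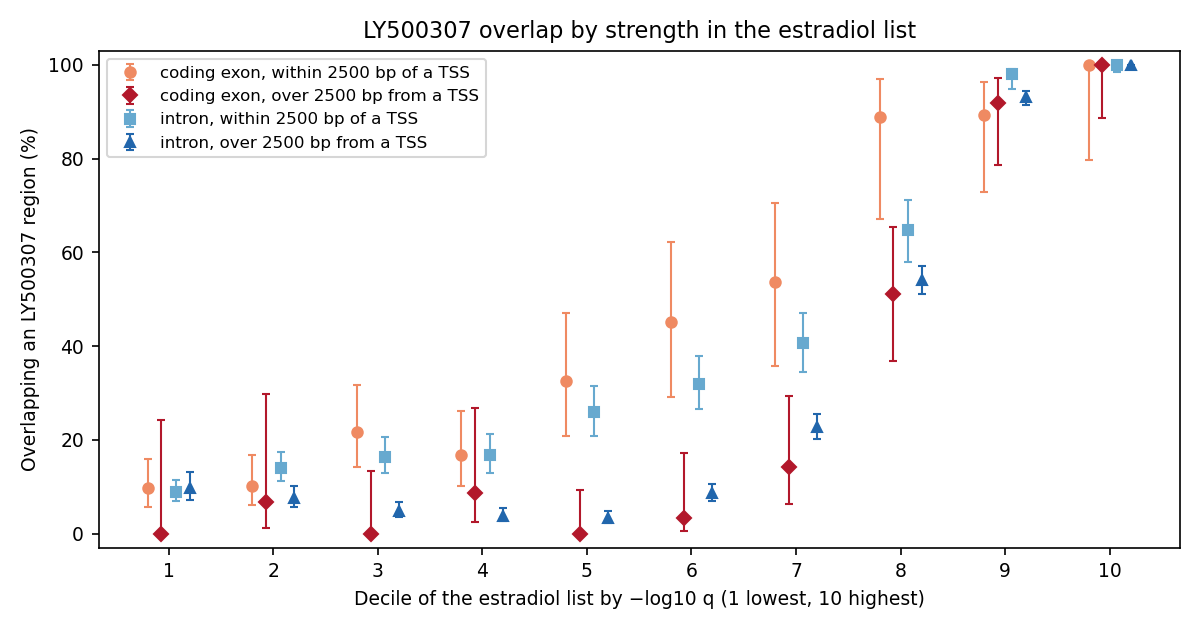
Share (%) of estradiol regions that overlap an LY500307 region, by decile of the estradiol list in −log10 q, for coding-exon and intronic summits within and beyond 2500 bp of a TSS. Bars are 95% Wilson intervals; over the weaker 5 deciles 2.68% of far coding-exon regions overlap, against 15.4% of near ones, and in the highest decile all 4 groups are at 100%.

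Of the 12 strongest coding-exon regions, 12 overlapped an LY500307 region and 10 an ethanol region. In the highest decile of −log10 q, 100% of all estradiol regions overlapped an LY500307 region and 50.4% an ethanol region, against 46.7% for ethanol among the 45 coding-exon regions there. The highest −log10 q, 800.4, was in exon 1 of LAMC1, the laminin gamma-1 chain of basement membranes (chromosome 1, 183023552 to 183024380). Its fold was 174.2 in estradiol, 125.1 in LY500307 and 40.4 in ethanol. The summit was 0.584 kb from a TSS and had no ERE, and the region ranked 7 in the whole list. CSF2RB exon 4, in the gene for the shared beta subunit of several cytokine receptors, had a fold of 187.0 in estradiol, 95.3 in LY500307 and 40.7 in ethanol (chromosome 22, 36925609 to 36926464).

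LGALS2, which encodes a galactoside-binding lectin, had folds of 167.0 in estradiol, 69.5 in LY500307 and 17.8 in ethanol over its exon 4, the last. ALDH3B1, an aldehyde dehydrogenase gene, had 133.7 in estradiol, 54.8 in LY500307 and 12.8 in ethanol over exon 3. IQGAP3, which encodes a scaffold of the actin cytoskeleton, had 139.1 in estradiol, 62.0 in LY500307 and 12.2 in ethanol over exon 14 of 38, at 20.5 kb from a TSS and without an ERE. Only LAMC1 and FUT4 among the 12 were in a first exon. FUT4, a fucosyltransferase gene with a single exon of 5975 bp, had folds of 107.3 in estradiol, 42.7 in LY500307 and 7.0 in ethanol.

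KEAP1, the adaptor that marks the antioxidant factor NRF2 for degradation, had folds of 121.3 in estradiol, 47.1 in LY500307 and 11.3 in ethanol over its last exon. CLIC5, an intracellular chloride channel gene, had 94.9 in estradiol, 33.4 in LY500307 and 9.9 in ethanol over exon 3. RBM20, a regulator of titin splicing, had 105.5 in estradiol, 34.2 in LY500307 and 17.9 in ethanol over exon 2, at 90.4 kb from a TSS. In all 12 regions, chosen by estradiol −log10 q, the estradiol fold was the highest of the lists in which the region appeared. Since each fold is scaled to its own list, this order is a description and not a tested change.

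ADAMTS12, a secreted metalloprotease gene, had folds of 74.2 in estradiol, 26.4 in LY500307 and 7.3 in ethanol over exon 16, at 173 kb from a TSS. RNF144B, a ubiquitin ligase gene, had 78.7 in estradiol and 16.4 in LY500307 over exon 5, with no ethanol region. COL21A1, a collagen gene, had 77.5 in estradiol and 26.4 in LY500307 over exon 10 of 63 bp, also with no ethanol region. The last 2 were the strongest coding-exon regions outside the ethanol list.

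**Figure D4:**
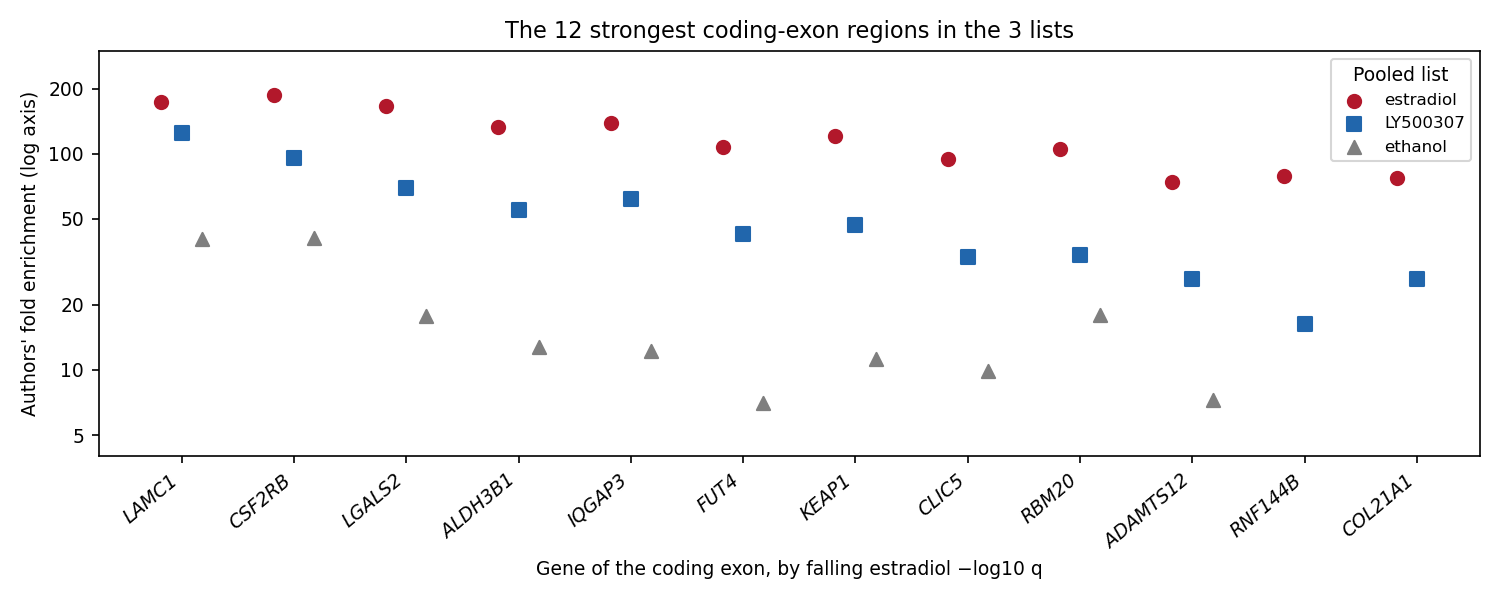
Fold enrichment given by the authors (log axis) for the 12 coding-exon regions with the highest estradiol −log10 q, in the estradiol (circles), LY500307 (squares) and ethanol (triangles) lists. The order estradiol, LY500307, ethanol holds at every gene, and RNF144B and COL21A1 have no ethanol region; folds are scaled within each list.

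After RNF144B and COL21A1, the next strongest regions outside the ethanol list were at ETS1, WDTC1, USP31 and SHB. ETS1, a transcription factor gene, had a fold of 63.8 in estradiol and 19.2 in LY500307 over exon 8. WDTC1, a substrate receptor of a ubiquitin ligase, had 84.4 in estradiol and 36.4 in LY500307 over exon 7. USP31, a deubiquitinase gene, had 84.0 in estradiol and 35.6 in LY500307 over exon 1, and the adaptor gene SHB had 79.1 in estradiol and 34.4 in LY500307 over exon 3. None of the 6 had an ERE.

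The strongest coding-exon region in neither other list was at exon 11 of PCYT2, an enzyme of phosphatidylethanolamine synthesis, with an estradiol fold of 38.2 and rank 3188 in the list. RNASEH1, which encodes a nuclease that digests RNA paired with DNA, followed with a fold of 36.0 over exon 1. ITGAE, an integrin alpha chain gene, had 30.4, the olfactory receptor gene OR7D2 had 29.3, ALS2CL had 24.5 and the protocadherin gene PCDH1 had 22.4. Of these 6, PCYT2, RNASEH1 and ALS2CL had an ERE with 1 mismatch.

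DAGLA, which encodes the lipase that makes an endocannabinoid, was the gene with 3 coding-exon regions. Their estradiol folds were 21.9 over exon 6, 39.3 over exon 8 and 16.5 over exon 19. LY500307 regions lay over exon 6 with a fold of 6.8 and over exon 8 with 5.4, and no ethanol region lay in the gene. Its other 16 coding exons had no estradiol region.

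Gene families were described by counts beside the background of 4.26% of protein-coding genes, with no test. Among genes of the extracellular matrix and its receptors, 4 of 12 laminin genes, 5 of 24 ADAMTS and ADAMTSL genes, 7 of 44 collagen genes and 4 of 26 integrin genes had a coding-exon region. Families differ in coding length, so each share of the 880 regions is also given beside the family's share of coding bases. Collagens held 0.795% of the regions and 0.601% of the bases, and ADAMTS and ADAMTSL genes 0.682% of the regions and 0.272% of the bases. Laminins held 0.455% of the regions and 0.242% of the bases, and integrins 0.455% of the regions and 0.245% of the bases. Besides LAMC1, the laminin genes were LAMB1 (exon 22, fold 26.5 in estradiol and 6.4 in LY500307), LAMB3 (exon 11, fold 13.4) and LAMA3. The integrin with the highest −log10 q was ITGA3 (fold 31.9 in estradiol and 13.1 in LY500307), and ITGB2 had an ERE with 1 mismatch (fold 27.4 in estradiol and 7.5 in LY500307). COL15A1 exon 35 had folds of 32.1 in estradiol and 11.0 in LY500307. Of the 21 regions in these 4 families, joined after their values were seen, 15 (71.4%) were over 2500 bp from a TSS, against 32.5% of all 880.

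Replication-dependent histones, short genes of 1 exon, had 7 of 69 genes (10.1%). All 7 summits were within 2500 bp of a TSS, as the length of such genes requires. None had an ERE, against 3.70% of all 594 near regions. These genes held 0.795% of the regions and 0.0464% of the coding bases, a background not limited to bases near a TSS. H4C2 led them with a fold of 16.7 in estradiol and 10.2 in LY500307, followed by H1-4 with 12.6. Zinc finger genes were below the background with 11 of 602 genes, led by ZNF683 (fold 37.2 in estradiol, 9.1 in LY500307, 1-mismatch ERE). They held 1.36% of the regions and 3.51% of the bases. Olfactory receptors had 2 of 390 genes (0.227% of the regions and 1.10% of the bases) and protocadherins 1 of 66 (0.114% of the regions and 0.529% of the bases). HOX genes (0 of 39), Eph receptors and ephrins (0 of 22) and Notch receptors and ligands (0 of 9) had none. These last families held only 0.104%, 0.148% and 0.126% of the coding bases, so a count of none is close to the background. Solute carriers had 9 of 340 genes (1.02% of the regions and 1.72% of the bases), and receptors named GPR or ADGR 4 of 106 (0.455% of the regions and 0.645% of the bases). Plexins and semaphorins had 3 of 29 (10.3%, with 0.341% of the regions and 0.304% of the bases), led by PLXNB2 with folds of 31.7 in estradiol and 7.6 in LY500307. Keratins had 2 of 55 (0.227% of the regions and 0.240% of the bases), KRT19 (fold 6.3) and KRT7 (fold 5.6), both in exon 1. Of 26 classical estrogen targets, 2 (7.69%) had one: RARA, the retinoic acid receptor alpha gene, over exon 7 (fold 9.5, 1-mismatch ERE), and CCND1, the cyclin D1 gene, over exon 1 (fold 7.6), neither in another list. The classical targets held 0.227% of the regions and 0.114% of the bases.

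A promoter region accompanied the coding-exon region in 198 of the 837 genes (23.7%), against 20.5% of all protein-coding genes.

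Of 10 other motifs sought at the summits, 8 differed in frequency from intronic summits. Within quartiles of GC content 4 did, namely AP-1, TEAD and GATA in the same direction and SP1 in the opposite one. SP1 (GGGCGG, both strands, no mismatch, as for all that follow) was in 33.9% of coding-exon windows, 16.3% of intronic and 7.77% of other coding-exon windows. Its odds ratio over introns was 2.63 (2.27 to 3.05; Fisher's exact test, adjusted p = 1.01e-32) but 0.759 within quartiles of GC content (0.640 to 0.901; Mantel-Haenszel chi-square test, adjusted p = 0.00286). The ERE half-site AGGTCA, part of which overlaps the ERE, was in 28.9% of coding-exon and 48.5% of intronic windows. Over 2500 bp from a TSS it was in 54.9% of coding-exon and 55.2% of intronic windows. Nearer to a TSS it was in 16.3% of coding-exon and 31.5% of intronic windows. At all distances together, the half-site odds ratio over introns was 0.430 (Fisher's exact test, adjusted p = 2.83e-29). It was 0.837 within quartiles of GC content, where it missed the threshold (Mantel-Haenszel chi-square test, adjusted p = 0.0636). AP-1 (TGACTCA or TGAGTCA) was in 5.23% of coding-exon and 15.1% of intronic windows, with an odds ratio of 0.311 (0.230 to 0.421; Fisher's exact test, adjusted p = 3.12e-18). TEAD (GGAATG) was in 5.57% of coding-exon and 16.9% of intronic windows. The letters AGATAA of the GATA factors were in 2.16% of coding-exon and 8.84% of intronic windows. Within quartiles of GC content the odds ratios over introns were 0.520 (0.382 to 0.707) for AP-1, 0.467 (0.346 to 0.630) for TEAD and 0.585 (0.364 to 0.938) for GATA. Windows downstream of the same summits, by coordinate and not by gene strand, had the AP-1 letters in 2.39%, TEAD in 10.1% and GATA in 11.8%. TEAD letters (exact sign test, adjusted p = 8.98e-04) and GATA letters (exact sign test, adjusted p = 2.15e-15) were thus rarer at the summit than downstream, and AP-1 letters (exact sign test, adjusted p = 0.00361) more frequent.

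ETS (CCGGAA) was in 8.41% of coding-exon and 4.59% of intronic windows, the NRF1 motif in 2.50% of coding-exon and 0.480% of intronic windows, and the CTCF core in 2.39% of coding-exon and 1.10% of intronic windows. None of these 3 passed the test within quartiles of GC content. In the downstream windows the ETS letters were in 2.73%, the NRF1 motif in 0.114% and the CTCF core in 1.14%. FOXA (TGTTTAC or TGTTTGC) was in 3.07% of coding-exon and 4.13% of intronic windows (Fisher's exact test, adjusted p = 0.178). The E-box CACGTG was in 3.64% of coding-exon and 3.32% of intronic windows (Fisher's exact test, adjusted p = 0.654). 

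HDAC7, a class IIa histone deacetylase gene on chromosome 12, carried regions along its exons in the ethanol and LY500307 lists. It and ESR2 were chosen after their values were seen. In the ethanol list 13 regions touched its exons and lay over 21 of its 26 coding exons, from exon 3 to exon 25, with folds of 6.86 to 30.4 and a median of 17.1. In the LY500307 list 9 regions lay over 15 coding exons, with folds of 8.35 to 18.8 and a median of 11.4. In the estradiol list 2 regions lay over exons 11 and 13, with folds of 7.50 and 6.35. Exons made up 11.3% of the span of the gene's coding exons but 94.5% of the bases under the estradiol, 48.0% under the LY500307 and 39.5% under the ethanol regions. At both exons the estradiol fold was the lowest of the 3 lists, with 17.2 in LY500307 and 27.1 in ethanol over exon 11, and 18.8 in LY500307 and 30.4 in ethanol over exon 13. A lower estradiol than LY500307 fold was also seen elsewhere, in 26 of the 253 coding-exon regions with an LY500307 region, and a lower estradiol than ethanol fold in 17 of the 93 with an ethanol region, both counts including HDAC7.

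ESR2, the gene of ER-beta itself, on chromosome 14, showed this arrangement in the ethanol list. That list had 7 regions over 7 of the 8 coding exons of the gene, all but exon 4, with folds of 6.58 over exon 6 to 42.5 over exon 2. The LY500307 list had regions over exons 8 and 5, with folds of 12.8 and 7.64. The estradiol list had a coding-exon region over exon 8 alone, with a fold of 31.9 and an ERE with 1 mismatch, and a second region with its summit in the 3' UTR of exon 9 (fold 11.0). Exons made up 11.9% of this span and 70.9% of the bases under the ethanol regions. The cells carry an added ER-beta gene, and reads from that copy and from the cell's own exons cannot be told apart in these lists. For HDAC7 what gave the exon-wise regions was not tested. The 2 genes made up 14.2% of the ethanol coding-exon regions, 3.00% of the LY500307 and 0.341% of the estradiol ones.

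**Figure D5:**
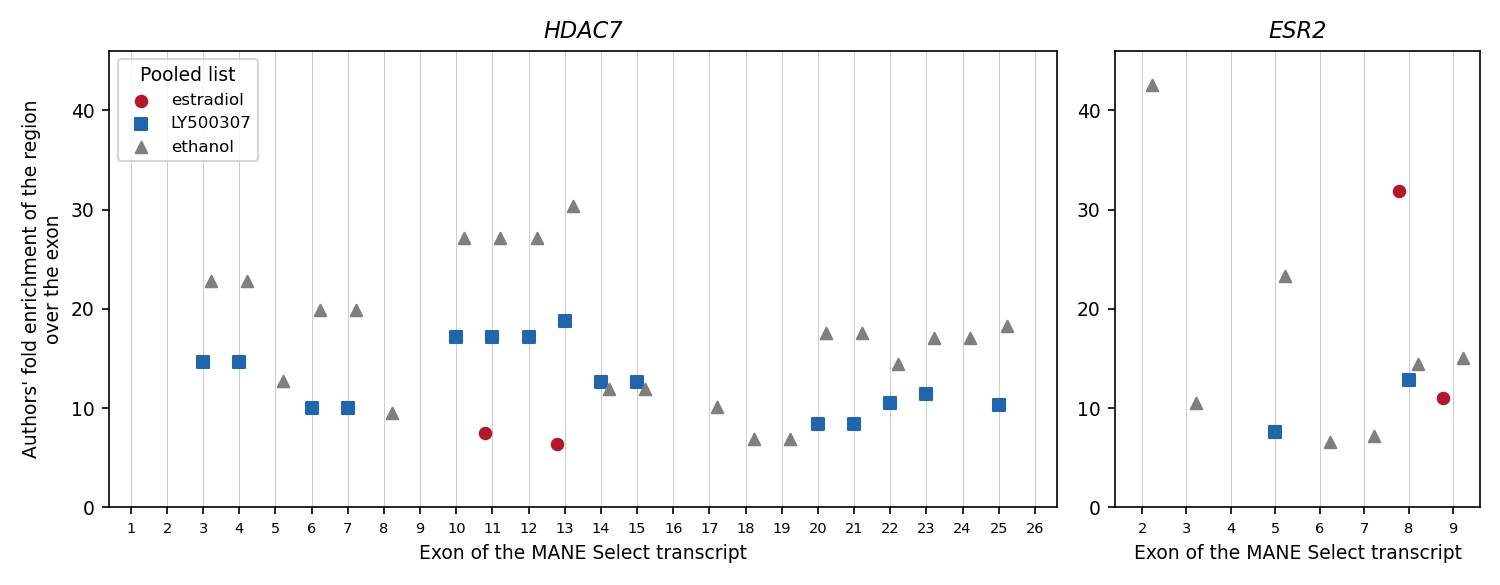
Fold enrichment given by the authors of the region over each exon of HDAC7 (left) and ESR2 (right) in the estradiol (circles), LY500307 (squares) and ethanol (triangles) lists; a region over several exons is drawn at each of them, and an exon without a mark has no region in that list. Ethanol regions lie over 21 of 26 coding exons of HDAC7 and 7 of 8 of ESR2, estradiol regions over 2 and 1 with a coding summit.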

How the data were processed

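Each of the 3 pooled lists held regions in narrowPeak format with hg38 coordinates; Bowtie2 2.2.6, MACS2 2.1.1.20160309 and DiffBind are named in the submitters' processing notes, with no role or settings. The deposited values are, per the order of the columns, a display score (not used), a fold (a linear ratio of ChIP over local background), a −log10 p-value (not used), a −log10 q-value and a summit offset in bases, all computed by the authors. Read depth is unknown from these lists. After records outside chromosomes 1 to 22, X and Y were dropped, there remained 26861 of 26896 for estradiol, 10045 of 10059 for LY500307 and 2905 of 2911 for ethanol.

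Summits were classed with GENCODE 44 in the order promoter, 5' UTR, coding exon, 3' UTR, intron and intergenic. The exon was taken from the MANE Select transcript, else the Ensembl canonical one, else the longest coding sequence. TSS distance is to the nearest protein-coding TSS of any gene. Overlap meant 1 bp or more. Fisher's exact tests were two-sided, and the strata used Mantel-Haenszel odds ratios and chi-square tests. Functions were tested on simulated data. Named regions followed a rule: the 12 highest −log10 q, the 6 highest without an ethanol region, the 6 highest in no other list, exact EREs inside the exon (1 of them is not reported here), genes with 3 or more regions, the 3 highest of each of 16 gene groups and the 3 longest exons. The regions, gene groups and tests were chosen with earlier results of these data known. The distance split and the set without HDAC7 and ESR2 were added after seeing the data. Sequences were read from the hg38 genome. Python 3.11.15, scipy 1.17.1, pandas 2.3.3, statsmodels 0.14.6 and pysam 0.24.0 were used.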

Additional observations from a re-analysis of the deposited data

How the results depend on the processing

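No paired analysis was possible because each treatment has 1 pooled list and replicates were numbered in accession order only, so no library could be left out either. With promoters drawn 2500 bp wide on both sides, 286 regions were left, 0.350% of them in a first exon, 33.2% with an LY500307 region, 6.29% with an ethanol region, 20.6% with an ERE and 60.8% above the list's median −log10 q. The odds ratios of coding-exon regions then became 0.895 (introns) and 0.973 (all other regions) for LY500307, and turned to 1.26 and 1.63 for the ERE. The ratios over introns in this setting are those of the far regions given above, not separate tests. Within deciles of −log10 q the LY500307 odds ratio turned to 1.43 (introns), 1.40 (all others) and 0.158 (far over near), and that for ethanol was 1.60 and 1.61. With coding-exon and intronic regions both over 2500 bp from a TSS, the within-decile ratios were 0.693 for LY500307 and 0.827 for ethanol. With a split at 1000 bp, added after seeing the data, the far-over-near LY500307 odds ratio was 1.50 (Fisher's exact test, adjusted p = 0.0128). Asking for overlap of 50% of each region gave 21.8% for LY500307 and 3.98% for ethanol, and lists cut to the same number of strongest regions gave 83.0% and 44.7% of 47 regions. With no mismatch 1.14% of summits had an ERE, with odds ratios of 0.688 (introns) and 0.677 (all others) that missed the threshold, and with 2 allowed 34.5% did. At a −log10 q of 5 or more, 48.2% of summits were in a first exon and 64.3% within 2500 bp of a TSS. Within quartiles of GC content the SP1 odds ratio turned to 0.759 and 4 motifs passed, SP1 among them. The causes of these shifts were not tested. Leaving out HDAC7 and ESR2, also added after seeing the data, moved none of the 3 shares outside its interval and none of 3 odds ratios across the threshold, with LY500307, ethanol and ERE odds ratios over introns of 0.739, 1.11 and 0.590. Depth is unknown, so a region absent from a list may only have missed its threshold.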
